A study of Homo sapiens with 4 samples.

Results

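The genes described here encode subunits of the transcription factor NF-kB and the proteins that feed back on it. They were taken by symbol: NFKB1, NFKB2, RELA, RELB, NFKBIA, NFKBIB, NFKBIE, TNFAIP3, TNIP1 and BIRC3, 10 genes of which 9 had values, in 11 rows of a table of 14540 rows. RELA was not analysed here. Each row counts reads of a single RefSeq mRNA accession, and the main row of a gene is the accession with the most reads over all libraries. The cells were PLC/PRF/5, a human hepatocellular carcinoma line that carries integrated hepatitis B virus DNA. The knockdown cells (PLC-shUSP22, 2 libraries) had USP22 knocked down by lentivirus, and the control cells (PLC-NC, 2 libraries) were of the same line and labelled as control. Both groups were held in 1% oxygen and 5% carbon dioxide for 48 h, and no library from cells in normal oxygen was analysed here. The sources used here name neither the hairpin nor whether the infected cells were a pool or a clone.

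NF-kB is a dimer of Rel family proteins that inhibitors of the IkB family hold in the cytoplasm. Signals from tumour necrosis factor, interleukin-1 or Toll-like receptors activate the IkB kinase complex, the inhibitor is degraded, and the dimer enters the nucleus. Several genes it switches on encode its own brakes, among them NFKBIA and TNFAIP3, so their transcripts are often read as a mark of pathway activity. In hepatocytes the pathway is known for protecting cells from death induced by tumour necrosis factor and for inflammatory and acute-phase genes. USP22 is the deubiquitinase of the SAGA coactivator complex and removes ubiquitin from histone H2B.

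In the knockdown 5 of the 9 members fell (NFKB2, RELB, NFKBIA, TNIP1 and BIRC3), 0 rose and 4 did not pass the test. At an unadjusted p under 0.05 in edgeR 7 were lower and 0 higher, against 16.7% and 14.8% of all rows tested. At an adjusted p under 0.05 DESeq2 and limma-voom also called 0 members higher. BIRC3 fell most, by 2.26 on the log2 scale, and the other 4 that fell had log2 fold changes between −1.42 and −0.66. Over all 12337 rows tested, 10.2% fell and 8.49% rose at the same threshold, an adjusted p below 0.05 by edgeR's quasi-likelihood method. The median log2 fold change was −0.76 over the 9 members and 0.00 over all rows tested. Both knockdown libraries lay below both control libraries in 7 of the 9 members, against 30.3% of all rows tested, and above them in 0 members, against 29.3%. Of the 5 members with at least 1000 reads each over the 4 libraries (NFKB2, RELB, NFKBIA, NFKBIE and BIRC3), 4 fell, against 13.4% of the 4988 tested rows with at least 1000 reads. Of the 4 members with fewer reads, 1 fell, against 7.99% of the 7349 tested rows with fewer reads. Without PLC-NC replicate 1 or without PLC-NC replicate 2, 3 members fell. The members were chosen with earlier results of these data known, so their shares and direction are not independent evidence. In bulk RNA, fewer cells that express a gene and less RNA per cell cannot be told apart.

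The knockdown was checked first. USP22 had 360 and 447 CPM in knockdown libraries, against 2937 and 2573 CPM in control libraries, where CPM is the read count scaled to the TMM-normalized library size. Libraries held 15027209 to 17194929 reads. All 10 markers of hepatocytes and liver cancer had values and 8 averaged at least 10 CPM. Their summed level was 44500 and 34927 CPM in knockdown libraries, against 29748 and 27644 CPM in control libraries. Of 7 leukocyte markers 2 had values (CD68 and LYZ), and their summed level was 384 and 222 CPM in knockdown libraries, against 305 and 360 CPM in control libraries. Summed levels of 4 of 5 fibroblast markers were 23.8 and 19.0 CPM in knockdown libraries, against 20.5 and 31.7 CPM in control libraries. Those of 3 of 4 endothelial markers were 29.6 and 23.3 CPM in knockdown libraries, against 17.9 and 11.6 CPM in control libraries. Only 1 fibroblast marker and 1 endothelial marker averaged at least 10 CPM. The part of the differences in marker levels in the results below was not tested. The labels do not say that the libraries of a group came from separate cultures, so p-values measure the spread between these libraries, which may be technical.

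**Figure D1:**
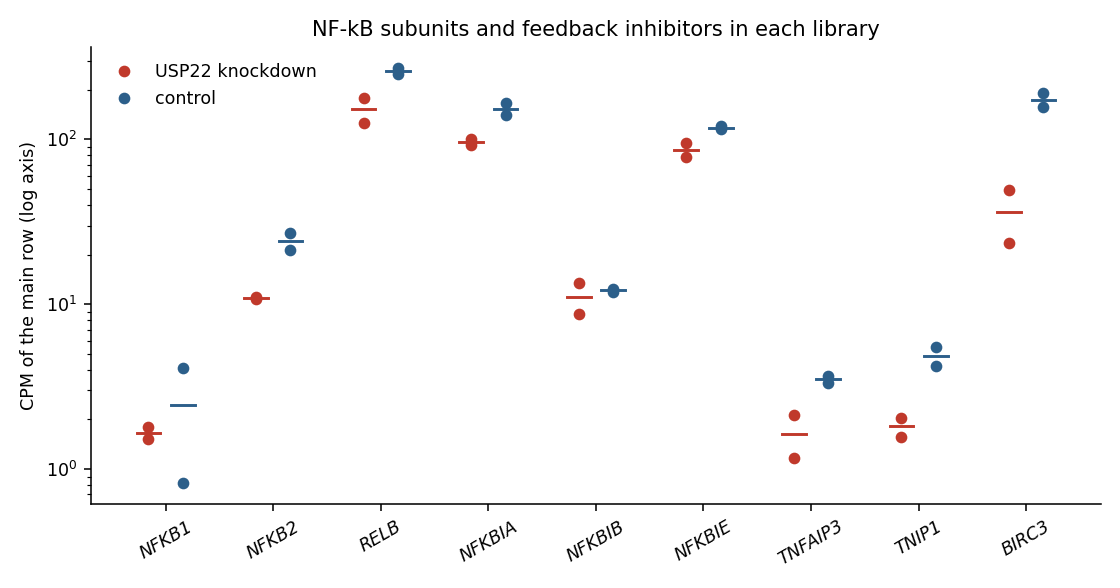
CPM of the main row of each member (log axis), with 1 point per library and a bar at the mean of 2 libraries. Knockdown points lie below both control points for 7 of the 9 members, and NFKB1 and NFKBIB are the exceptions.

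Sequences that resemble known NF-kB binding sites are shown for these genes because several of them are both parts and known targets of the pathway. The RefSeq promoter table (GRCh38.p14) had entries for 8 members, with none for RELB and NFKBIE. The 250 bases before each start site were searched on both strands for the classical kB consensus, a motif of 10 bases, and overlapping matches were kept. A match was present in 8 of 14 promoters of the members, in 7 of 8 genes, against 5.21% of all 35116 promoters in the table. By gene, 7.98% of 9304 genes of the count table with a promoter entry held one. Several members are known targets of the pathway, so the higher share among them is not independent evidence. RELA, which has no value here, was the member without a match. Below, each stretch is written 5′ to 3′ in the sense of the gene, and capitals mark the match, which can lie on either strand. Stretches that overlap an annotated exon of any transcript are cut short.
NFKBIA, chr14:35404801-35404850, minus strand: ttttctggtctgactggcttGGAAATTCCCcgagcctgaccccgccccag
BIRC3, distal, chr11:102317265-102317314, plus strand: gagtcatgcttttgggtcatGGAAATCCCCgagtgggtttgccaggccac
BIRC3, proximal, chr11:102317329-102317378, plus strand: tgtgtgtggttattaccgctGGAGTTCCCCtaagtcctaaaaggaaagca
TNFAIP3, chr6:137867188-137867217, plus strand: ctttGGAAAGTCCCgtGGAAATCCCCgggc
NFKB2, start site 2, chr10:102394463-102394489, plus strand: aacgtcatGGGAATTCCCCcctccggg
NFKB2, start site 3, chr10:102395676-102395701, plus strand: gtattttcGGGACTTTCCtaagctgc
TNIP1, start site 2, chr5:151081059-151081084, minus strand: agtctccgGGGACTTTCCcaggggtg
NFKB1, start site 1, chr4:102501302-102501327, plus strand: acgtcagtGGGAATTTCCagccagga
NFKBIB, start site 2, chr19:38899933-38899959, plus strand: gcgtggtgGGGAATTTCCCgcagggcg
TNFAIP3 holds a pair of matches close to each other, and the stretches of NFKB2 at start site 2 and of NFKBIB hold overlapping matches. The stretches are a selection: 2 further NFKB2 matches, at −78 from start site 2 and at −176 from start site 3, are not shown. A match is a description of the letters and no evidence that a protein was bound in these cells. Which start site the counted accession uses was not tested.

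**Figure D2:**
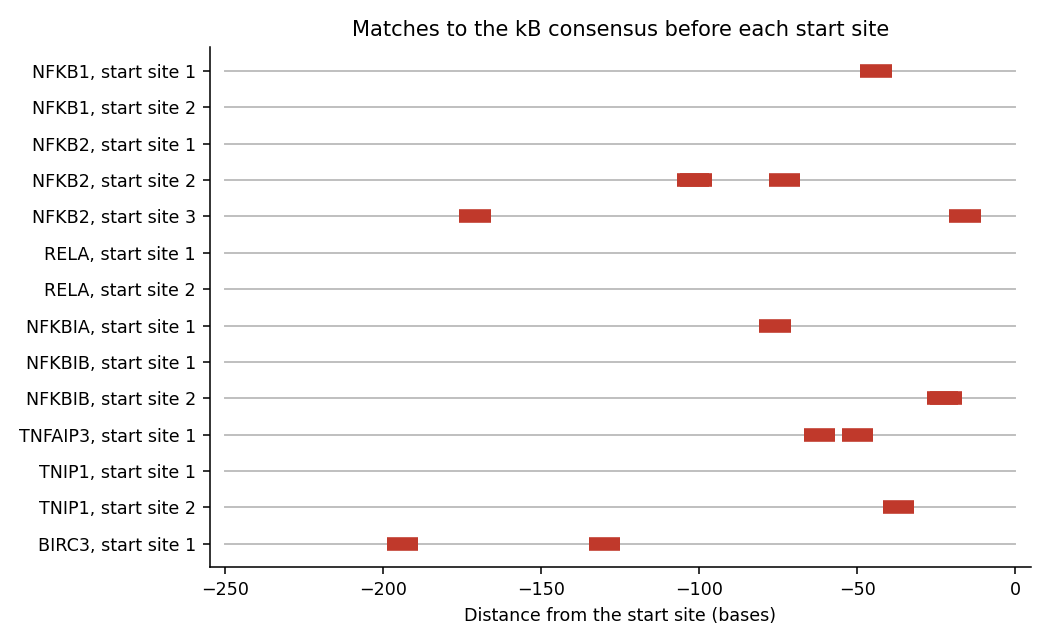
Positions of matches to the kB consensus (bars of 10 bases) in the 250 bases before each start site of the members, with distance from the start site in bases. Promoters of BIRC3 and TNFAIP3 hold 2 matches each, at −199 and −135 and at −67 and −55.

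The share of promoters with a match was examined over all genes too. Among genes with a promoter entry, a match was present in 8.77% of 867 genes whose main row fell, in 7.75% of 774 whose main row rose and in 7.73% of 6671 that were not called. In the list of known NF-kB target genes used below it was 12 of 24 genes, and in the list of upstream signalling genes 5 of 35. Known NF-kB sites were among the grounds for listing a target, so the share in that list was partly set by how it was drawn.

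Of the DNA-binding subunits, NFKB2 and RELB fell. RELB pairs with p52, the processed form of the NFKB2 product p100, in the noncanonical arm of the pathway. RELB had 126 and 179 CPM in knockdown libraries, against 249 and 271 CPM in control libraries. The groups did not overlap, and the knockdown libraries were 48.7% and 69.0% of the control mean. The log2 fold change was −0.76 ± 0.19 (SE, n = 2 per group; edgeR adjusted p = 0.0124). Without PLC-NC replicate 2 it was −0.68 (adjusted p = 0.0548, 6.85e-07 to 0.0548 over the 11 alternatives). It was −0.50 without PLC-shUSP22 replicate 1 (adjusted p = 0.0485) and −1.03 without PLC-shUSP22 replicate 2.

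NFKB2 encodes p100, which is both a precursor of p52 and an inhibitor that binds RELB. Its main row (NM_001261403.2) had 10.8 and 11.1 CPM in knockdown libraries, against 21.3 and 26.96 CPM in control libraries. The knockdown libraries were nearly equal, at 44.6% and 45.8% of the control mean. The log2 fold change was −1.14 ± 0.25 (SE, n = 2 per group; edgeR adjusted p = 0.00709). A second accession (NM_001077494.3) had 21 and 12 reads in knockdown libraries, against 46 and 22 reads in control libraries. Its groups overlapped in CPM and its log2 fold change of −1.03 did not pass (edgeR adjusted p = 0.302). With both rows summed NFKB2 had a log2 fold change of −1.12 (edgeR adjusted p = 0.00508). Without PLC-NC replicate 2 the main row lost its call (log2 fold change −0.95, edgeR adjusted p = 0.0628, 6.26e-05 to 0.0628 over the 11 alternatives).

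NFKB1 encodes p105, the precursor of the p50 subunit of the canonical dimer. Its row had 27 and 26 reads in knockdown libraries, against 13 and 66 reads in control libraries. The control libraries differed by 4.97 times in CPM and enclosed both knockdown libraries. The difference did not pass: the fold was 0.672 of control with a 95% interval of 0.250 to 1.81 (edgeR adjusted p = 0.606). The log2 fold change was −0.57 with all libraries, −1.30 without PLC-NC replicate 1 and 1.02 without PLC-NC replicate 2. NFKB1 has 7 RefSeq mRNA accessions and a single row here, so these few reads say little about the gene.

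**Figure D3:**
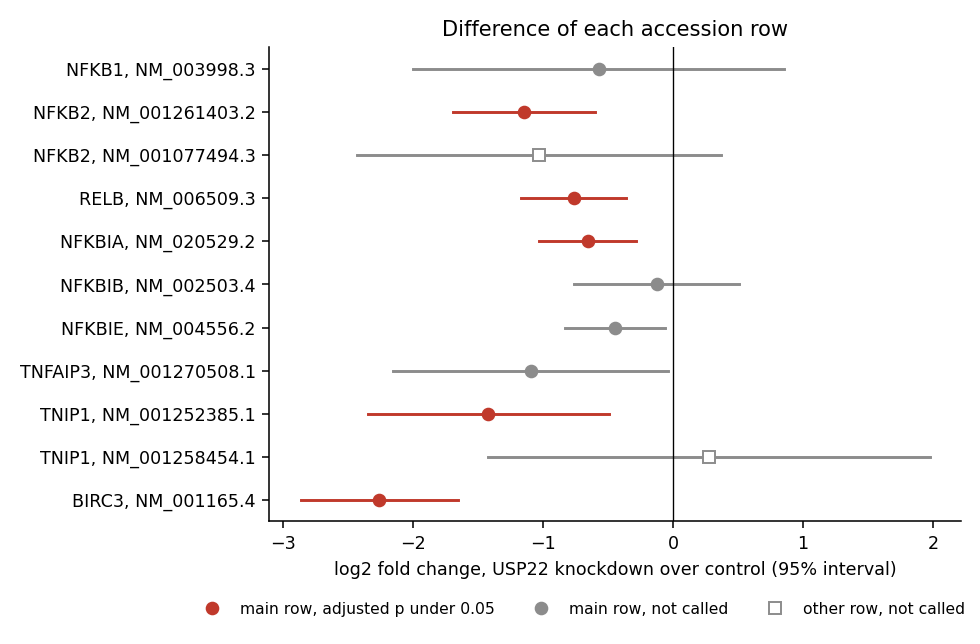
Log2 fold change of knockdown over control for all 11 accession rows of the members, with 95% intervals. The interval lies below 0 for the 5 rows that fell and also, before adjustment over all rows, for those of NFKBIE and TNFAIP3.

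Of the 3 IkB genes, NFKBIA fell. It encodes IkB alpha, the fast inhibitor that is degraded on stimulation and made again under NF-kB control. NFKBIA had 93.0 and 101 CPM in knockdown libraries, against 165 and 140 CPM in control libraries. The groups did not overlap, and the knockdown libraries lay within 1.08 times of each other. The log2 fold change was −0.66 ± 0.17 (SE, n = 2 per group; edgeR adjusted p = 0.0180), a 1.58-fold decrease with a 95% interval of 1.22 to 2.04. Without PLC-NC replicate 1 it was −0.53 (adjusted p = 0.207, 0.000161 to 0.207 over the 11 alternatives).

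NFKBIE encodes IkB epsilon, a slower inhibitor that acts mainly on dimers of RELA and REL. It had 77.8 and 95.4 CPM in knockdown libraries, against 120 and 116 CPM in control libraries. Both knockdown libraries were lower, at 66.0% and 81.0% of the control mean, but the difference did not pass (log2 fold change −0.44 ± 0.18, SE, n = 2 per group; edgeR adjusted p = 0.105). It passed without PLC-shUSP22 replicate 2 (−0.59, adjusted p = 0.0418) and with the replicate number as a block (adjusted p = 0.0175), 0.0175 to 0.437 over the 11 alternatives. Without PLC-shUSP22 replicate 1 it was −0.27 (adjusted p = 0.437). In the authors' deposited table NFKBIE has a q-value of 0.0380.

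NFKBIB encodes IkB beta, an inhibitor degraded more slowly than IkB alpha. It had 8.73 and 13.5 CPM in knockdown libraries, against 11.9 and 12.4 CPM in control libraries. The knockdown libraries lay on either side of the control libraries, and the log2 fold change was −0.13 with a 95% interval of −0.76 to 0.51 (edgeR adjusted p = 0.820). Without PLC-shUSP22 replicate 1 the sign turned, to 0.19. NFKBIB overlaps SIRT2 on the opposite strand in the annotation, and the library kit does not mark strand. Reads from the stretch that both genes share therefore cannot be told apart, and the length of that stretch was not examined.

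Levels can be set side by side for NFKBIA and NFKBIE, the members with a single RefSeq mRNA accession. Per kilobase of transcript NFKBIA averaged 62.1 CPM in knockdown cells and 98.0 CPM in control cells. NFKBIE averaged 33.6 CPM per kilobase in knockdown cells and 45.7 in control cells. NFKBIA was thus the higher of these IkB transcripts in both groups on the per-length scale. RELB, with 2 accessions, averaged 66.6 CPM per kilobase in knockdown cells and 113 in control cells, and reads that the counting left out could raise its level.

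**Figure D4:**
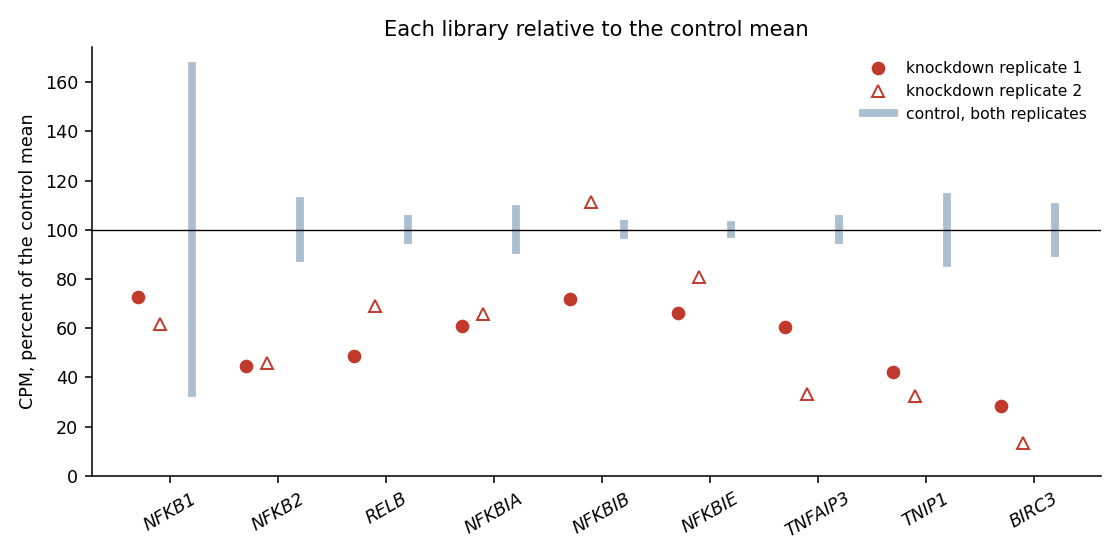
CPM of each knockdown library as a percentage of the control mean, for the main row of each member, with a bar for the span of both control libraries. Knockdown replicate 1 is the higher for BIRC3, TNFAIP3, TNIP1 and NFKB1, and replicate 2 for RELB, NFKB2, NFKBIA, NFKBIB and NFKBIE.

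The ubiquitin-acting brakes were counted in few reads. TNFAIP3 encodes A20, which edits ubiquitin chains on signalling proteins to end the response. Its row (NM_001270508.1) had 32 and 20 reads in knockdown libraries, against 53 and 59 reads in control libraries. In CPM the groups did not overlap, at 2.12 and 1.16 CPM in knockdown libraries, against 3.35 and 3.65 CPM in control libraries. The log2 fold change was −1.10 with a 95% interval of −2.15 to −0.04, and it did not pass after adjustment (edgeR adjusted p = 0.144; 0.0881 to 0.531 across 10 alternatives). TNFAIP3 has 3 RefSeq mRNA accessions and an antisense RNA gene on the opposite strand, so the row may hold a part of its reads and reads of its neighbour.

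TNIP1 encodes ABIN-1, which binds ubiquitin chains and A20 and restrains the pathway. Its main row (NM_001252385.1) had 31 and 27 reads in knockdown libraries, against 87 and 68 reads in control libraries. The knockdown libraries were 42.3% and 32.4% of the control mean, and the log2 fold change was −1.42 ± 0.43 (SE, n = 2 per group; edgeR adjusted p = 0.0350). A second accession (NM_001258454.1) had 9 and 17 reads in knockdown libraries, against 9 and 12 reads in control libraries, and did not pass (log2 fold change 0.28, edgeR adjusted p = 0.853). The call of TNIP1 was therefore one of an accession in a gene that has 26, and it was lost when both rows were summed (log2 fold change −1.06, edgeR adjusted p = 0.0684). It was also lost in DESeq2 (adjusted p = 0.0611), without PLC-NC replicate 1 (0.145) and without PLC-shUSP22 replicate 2 (0.142), 0.0101 to 0.145 over the 10 alternatives.

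BIRC3 encodes cIAP2, a ubiquitin ligase that works with TRAF2 at the tumour necrosis factor receptor and, with cIAP1, marks the kinase NIK for degradation. Its row (NM_001165.4) had 746 and 404 reads in knockdown libraries, against 3016 and 2554 reads in control libraries. In CPM this was 49.3 and 23.5 in knockdown libraries, against 190 and 158 in control libraries. The groups were far apart, and the knockdown libraries differed from each other by a larger ratio than the control libraries, which lay within 1.21 times. The decrease was 4.79-fold with a 95% interval of 3.15 to 7.28 (edgeR adjusted p = 0.000152), and 0 of 11 alternatives ended the call. Without PLC-shUSP22 replicate 1 the log2 fold change was −2.85, against −1.81 without PLC-shUSP22 replicate 2. The main row of BIRC2, the paralog that encodes cIAP1, had 5.55 and 9.26 CPM in knockdown libraries, against 8.27 and 10.3 CPM in control libraries, and did not pass (log2 fold change −0.32, 95% interval −1.04 to 0.40). A second BIRC2 accession (NM_001256163.1) had 16 and 20 reads in knockdown libraries, against 51 and 48 reads in control libraries. Its groups did not overlap, and its log2 fold change of −1.47 (95% interval −2.58 to −0.36) did not pass after adjustment (edgeR adjusted p = 0.0648). With both rows summed BIRC2 had a log2 fold change of −0.52 (edgeR adjusted p = 0.251).

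The knockdown libraries did not shift the members by a common factor. Knockdown replicate 2 was lower than replicate 1 for BIRC3 (13.5% against 28.3% of the control mean) and TNFAIP3 (33.3% against 60.5%). It was higher for RELB (69.0% against 48.7%) and NFKBIB (111% against 71.8%). For NFKB2 and NFKBIA they differed by at most 1.08 times. In the table deposited by the authors (the authors' deposited table), 6 of the 9 main rows have a q-value under 0.05, all with a negative log2 fold change, NFKBIE being the addition to the 5 that fell here. Of all 14540 rows of the authors' deposited table, 11.4% have such a q-value with a negative log2 fold change.

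Genes that act upstream or beside the members were taken from a list of 54 genes: receptors, adaptors, kinases, ubiquitin enzymes and other Rel and IkB genes. Of 41 with values 36 could be tested, of which 7 fell, 1 rose and 28 did not pass. The share that fell was 19.4%, against 10.2% of all rows tested, and the share that rose was 2.78%, against 8.49%. The median log2 fold change was −0.20. Both knockdown libraries lay below both control libraries in 15 of the 36, against 30.3% of all rows tested. They lay above them in 8, against 29.3%. This list too was written with earlier results of these data known, so its shares are not independent evidence. The genes that fell were TNFRSF1B, TLR3, RBCK1, MAP3K8, IRAK2, TNFRSF12A and IRAK1.

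The receptors TNFRSF1B and TLR3 had the largest falls of that list. The receptors TNFRSF1A, CD40 and LTBR did not pass. Their log2 fold changes were −0.59 (95% interval −2.08 to 0.91), −0.65 (−2.62 to 1.31) and −0.19 (−0.91 to 0.53). The TNFRSF1A row had 27 and 9 reads in knockdown libraries, against 33 and 22 reads in control libraries. That of CD40 had 5 and 18 reads in knockdown libraries, against 30 and 5 reads in control libraries. So few reads say little about either gene. TNFRSF1B, the second receptor for tumour necrosis factor, had 6.68 and 2.33 CPM in knockdown libraries, against 55.9 and 38.3 CPM in control libraries. Its log2 fold change was −3.40 ± 0.39 (edgeR adjusted p = 9.97e-05), and it ranged from −4.30 without PLC-shUSP22 replicate 1 to −2.81 without PLC-shUSP22 replicate 2. TLR3, the receptor for double-stranded RNA, had 18 and 7 reads in knockdown libraries, against 83 and 46 reads in control libraries (log2 fold change −2.35, edgeR adjusted p = 0.0156). That call was lost without PLC-NC replicate 1 (−1.83, adjusted p = 0.0792) and without PLC-shUSP22 replicate 2 (−1.75, adjusted p = 0.0526), while without PLC-shUSP22 replicate 1 the value was −3.25. IL1R1, the interleukin-1 receptor, rose: it had 8.66 and 7.05 CPM in knockdown libraries, against 3.41 and 3.46 CPM in control libraries (log2 fold change 1.19, edgeR adjusted p = 0.0293). Leaving out either control library (0.0690 and 0.0617) or PLC-shUSP22 replicate 1 (0.0930) ended its call, with log2 fold changes between 1.07 and 1.34 over 11 alternatives.

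RBCK1 encodes HOIL-1, a part of the complex that builds linear ubiquitin chains in this pathway. It had 11.5 and 13.6 CPM in knockdown libraries, against 48.2 and 44.8 CPM in control libraries (log2 fold change −1.89 ± 0.23, edgeR adjusted p = 0.000126). MAP3K8, a kinase that p105 holds inactive, had 45.8 and 31.0 CPM in knockdown libraries, against 75.1 and 90.2 CPM in control libraries (log2 fold change −1.11, edgeR adjusted p = 0.00383). Both were non-overlapping in their main rows and kept their calls in 11 of 11 alternatives. A second MAP3K8 accession (NM_001320961.1) had 136 and 109 reads in knockdown libraries, against 148 and 177 reads in control libraries. In CPM its groups did not overlap, but its log2 fold change of −0.41 (95% interval −1.07 to 0.26) did not pass (edgeR adjusted p = 0.408). MAP3K14, which encodes NIK, the kinase of the noncanonical arm, had 74.4 and 73.4 CPM in knockdown libraries, against 60.2 and 89.0 CPM in control libraries. Its log2 fold change was −0.01 (95% interval −0.46 to 0.43), with a sign that turned under 7 alternatives.

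The other Rel and IkB genes and the IkB kinase subunits did not pass. BCL3, an atypical IkB protein that binds p50 and p52 in the nucleus, had 224 and 206 CPM in knockdown libraries, against 283 and 293 CPM in control libraries (log2 fold change −0.42, 95% interval −0.76 to −0.08, edgeR adjusted p = 0.0808). It passed with a filter of 5 CPM in 2 libraries (adjusted p = 0.0482) and with the replicate block (0.0118), over a range of 0.0118 to 0.349. NFKBIZ and NFKBID, further nuclear IkB genes, had log2 fold changes of −0.21 (95% interval −0.90 to 0.48) and −0.10 (−1.22 to 1.02). CHUK, which encodes the kinase subunit IKK alpha, had a log2 fold change of 0.03 (95% interval −0.65 to 0.71). IKBKG, which encodes the scaffold subunit NEMO and has a near-identical pseudogene, had 15 and 19 reads in knockdown libraries, against 20 and 65 reads in control libraries, and passed only without PLC-NC replicate 1 (log2 fold change −1.92, adjusted p = 0.0211, against −1.33 with all libraries; 0.0211 to 0.892 across 10 alternatives). Without PLC-NC replicate 2 the log2 fold change of IKBKG was −0.25 (adjusted p = 0.892). REL (13 and 3 reads in knockdown libraries, 9 and 3 in control libraries) and TRAF1 (3 and 24 reads in knockdown libraries, 9 and 5 in control libraries) had too few reads to be tested. IKBKB was not analysed here.

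Known targets of NF-kB were taken from a list of chemokines, cytokines, adhesion molecules and survival genes. Of 45 listed genes 29 had values and 25 could be tested, of which 9 fell, 1 rose and 15 did not pass. The share that fell was 36.0%, against 10.2% of all rows tested, and the share that rose was 4.0%, against 8.49%. The median log2 fold change was −0.82. Both knockdown libraries lay below both control libraries in 16 of the 25, against 30.3% of all rows tested. They lay above them in 1, against 29.3%. The list was written with earlier results of these data known, so its direction is not independent evidence.

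The targets that fell were SOD2, IL32, CXCL8, LCN2, CCL20, PTGS2, IRF1, TNFAIP2 and ICAM1. SOD2, the mitochondrial superoxide dismutase, had 50 and 28 reads in knockdown libraries, against 238 and 105 reads in control libraries. Its log2 fold change was −2.13 ± 0.46 (edgeR adjusted p = 0.00620), and it was −1.40 without PLC-NC replicate 1 and −1.41 with its rows summed. Other tested rows of SOD2 had log2 fold changes of −0.42 and −1.50 and did not pass. IL32, an inflammatory cytokine gene with 19 RefSeq mRNA accessions, had 5.62 and 7.86 CPM in knockdown libraries, against 26.5 and 30.8 CPM in control libraries (log2 fold change −2.08, edgeR adjusted p = 0.000239). Other tested rows of IL32 had log2 fold changes of −1.30, −1.47 and −1.32, the last not called. With its rows summed IL32 had a log2 fold change of −1.67. CXCL8, a neutrophil chemokine, had 56.3 and 75.5 CPM in knockdown libraries, against 140 and 313 CPM in control libraries (log2 fold change −1.78, edgeR adjusted p = 0.00123). The control libraries of CXCL8 stood apart, and without PLC-NC replicate 2 its log2 fold change was −1.07. LCN2, an iron-binding acute-phase protein, had 166 and 39 reads in knockdown libraries, against 372 and 323 reads in control libraries (log2 fold change −1.72, edgeR adjusted p = 0.0256). LCN2 was not called by DESeq2 (adjusted p = 0.273), and its value was −3.22 without PLC-shUSP22 replicate 1 and −0.98 without PLC-shUSP22 replicate 2.

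The member of that list that rose was GADD45B, a stress gene known to oppose cell death signalling. It had 234 and 206 CPM in knockdown libraries, against 163 and 124 CPM in control libraries (log2 fold change 0.62, edgeR adjusted p = 0.0298). Without PLC-NC replicate 2 its call was lost (0.45, adjusted p = 0.274, 0.000133 to 0.274 over the 11 alternatives).

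**Figure D5:**
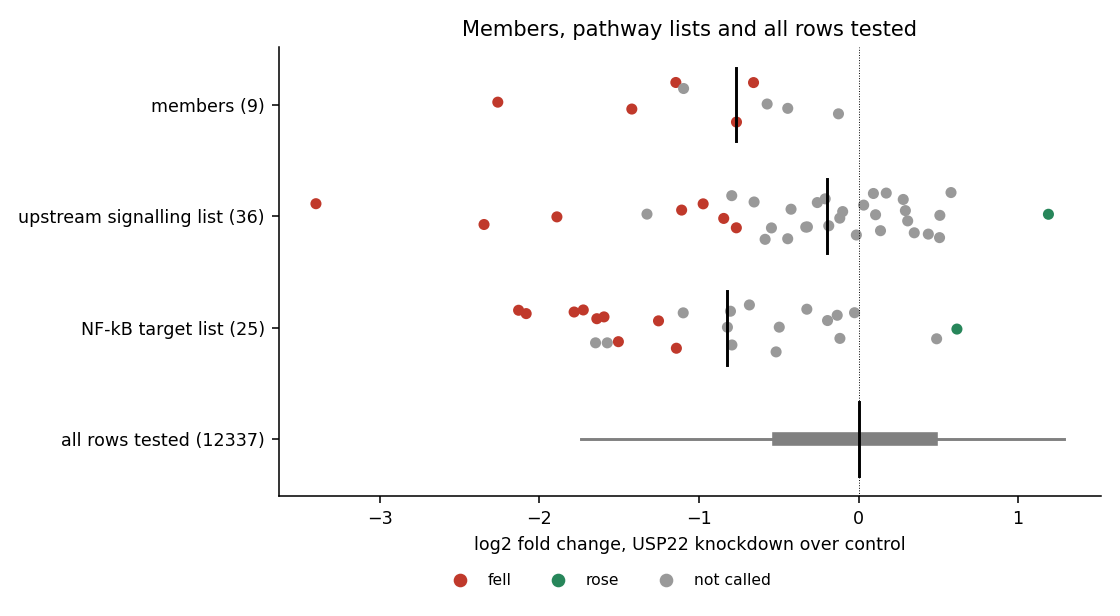
Log2 fold change of knockdown over control for 9 members, 36 upstream genes and 25 targets (points, with a line at the median of each) and for all 12337 rows tested (thick bar 25th to 75th percentile, thin line 5th to 95th). Medians are −0.76 for the members, −0.20 for the upstream list, −0.82 for the targets and 0.00 for all rows.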

How the data were processed

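RNA of 4 libraries was measured by sequencing. The deposited values used here are raw counts per RefSeq mRNA accession. Per the submitters' processing notes, bcl2fastq, HISAT2 2.1.0, HTSeq and the build hg19 were used, with counting rules that these sources do not state. The authors' deposited table also holds a log2 fold change, a p-value and a q-value per row. No source used here names the tool behind them. Genes with several accessions have rows of few counts, so levels are compared between genes only for single-accession genes. Library totals were 15027209 to 17194929.

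The filter filterByExpr of edgeR (minimum count 10) left 12337 of 14540 rows. Knockdown minus control was tested with edgeR 4.0.16 (R 4.3.3), TMM factors and glmQLFTest with no covariate, Benjamini-Hochberg over all rows tested, threshold 0.05. The common biological coefficient of variation was 22.1%. The fit was tested on simulated counts that gave every row the same dispersion. That test does not cover rows with another spread, or changes smaller than those simulated. SE is the log2 fold change divided by the square root of F. The members and gene lists were chosen with earlier results of these data known. All members were named. Of the other lists, the 4 called genes with the largest change in each direction and 10 fixed genes were named, and further names were chosen after their values were seen. Transcript lengths came from GENCODE v29, promoters from RefSeq.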

Additional observations from a re-analysis of the deposited data

How the results depend on the processing

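The alternatives were DESeq2 size factors, no filter, 5 CPM in 2 libraries, the replicate block, each library left out, DESeq2 1.42.0, limma-voom and rows summed per gene. Over the 96 values of the members under alternatives, 85 kept direction and side of the threshold, 7 lost and 2 gained a call, and 2 turned sign without passing (NFKB1 and NFKBIB). The count of members that fell was 3 to 5 without single libraries, 4 with the 5 CPM filter, with DESeq2 and with summed rows, and 6 with the replicate block. With the 5 CPM filter those 4 were of 6 members tested, because NFKB1, TNFAIP3 and TNIP1 did not pass that filter. TNIP1 was thus not tested there, whereas with DESeq2 and with summed rows it was tested and lost its call. The median of the members was −1.15 to −0.65 without single libraries. Upstream genes that rose numbered 0 to 2 without single libraries and 2 with the 5 CPM filter, DESeq2, limma-voom, the block or summed rows, and targets that rose 0 to 1 without single libraries. Against 1257 in all, rows that fell numbered 1020 to 1297 without single libraries and 1859 with the block. All rows that rose numbered 685 to 1340 without single libraries and 1672 with the block. Signs turned without a call for MAP3K14 (0.012 in the block, 0.013 in limma-voom, 0.0016 in DESeq2, 0.0024 with summed rows, −0.26 to 0.31 without single libraries) and NFKBID (0.15 with summed rows, −0.49 to 0.25 without single libraries). Without single libraries they also turned for NFKB1 (−1.30 to 1.02), NFKBIB (−0.47 to 0.19), NFKBIZ (−0.39 to 0.027), CHUK (−0.15 to 0.27) and BIRC2 (−0.73 to 0.038). For these and for the sum per gene the cause was not tested. The labels do not pair replicate numbers, and deviations of same-numbered libraries correlated at r = 0.0947 across rows. The block fit has 1 residual degree of freedom per row, and fits without a library assume that the lone library varies like the other group. The main rows of NFKB1, TNFAIP3 and TNIP1 held at most 87 reads in a library.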
